A study of Homo sapiens with 28 samples.

Results

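The G1 cyclins, their kinases, the Cip/Kip inhibitors and E2F1 were followed by RNA-Seq in PC3 and LNCaP prostate cancer cells in which the transcription factor ONECUT2 (OC2) was silenced or overexpressed, under normoxic and hypoxic conditions. The 10 genes were taken by symbol from 19662 genes listed in both expression tables: CCND1, CCND2, CCND3, CCNE1, CCNE2, CDK4, CDK6, CDKN1B, CDKN1C and E2F1. All 10 were found in both tables, and the rule is a list of symbols with no threshold on a measured value. PC3 is an androgen receptor-low line from a bone metastasis, and it received either a control siRNA (siCtrl) or an siRNA against OC2 (siOC2), where the 2 libraries per oxygen level were made with a different siRNA each, siRNA1 and siRNA2. LNCaP is an androgen-sensitive line from a lymph node metastasis, and it carried either an empty vector (EV) or Flag-tagged OC2 (OC2). The Flag-named OC2 vector that the paper lists is lentiviral with a viral promoter. The paper does not state which of its vectors was used for these libraries. Cells were kept in normoxia or in a chamber at 0.2% O2, which gave 4 groups of 2 libraries per line and 16 libraries in all. The labels do not say whether replicates came from separate cultures, so that p-values measure the spread between these libraries, which may be technical. In PC3 cells that spread also holds the difference between siRNA1 and siRNA2. The 4 groups of a line share an estimate of the spread, so that this difference enters every PC3 comparison, also those between siCtrl groups.

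Passage from G1 into S phase is driven by cyclin-dependent kinases. D-type cyclins activate CDK4 and CDK6 and E-type cyclins activate CDK2, and these kinases phosphorylate the retinoblastoma protein, which then releases E2F factors to switch on DNA replication genes. CDKN1B (p27) and CDKN1C (p57) bind cyclin-kinase complexes and hold cells in G1, and D-type cyclin complexes in turn hold part of the p27 pool. Low oxygen is known to slow this transition in many cell types.

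Levels were RPKM values, reads scaled to transcript length and to the mapped reads of a library, and comparisons were made with limma on log2(RPKM + 0.1) over all genes that reached 1 RPKM in at least 2 of the 8 libraries of a line. A gene was called, by the criteria used in the study, at a fold change over 2 with an unadjusted P under 0.05, and the Benjamini-Hochberg adjusted p over all genes tested is given beside it. All 10 members were among the 12214 genes tested in PC3 cells and 9 were among the 12283 tested in LNCaP cells. CCND2 was below the limit in LNCaP. The verbs rose and fell are kept for members that were called or that had an adjusted p under 0.05. Pairs said to lie apart or not to overlap are a description only. With 2 libraries a group, pairs can lie apart where the groups do not differ, and the share of all genes with such pairs was not counted. In bulk RNA, fewer cells at one stage of the cycle and less RNA per cell cannot be told apart. Fold changes are on the log2(RPKM + 0.1) scale, which understates those of low genes.

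The labels were checked first. ONECUT2 was at 1.77 and 1.16 RPKM in siCtrl and at 0.276 and 0.204 RPKM in siOC2 in normoxic PC3 cells, with no overlap (log2 fold change -2.18, SE 0.65, adjusted p = 0.332 by limma). In hypoxic PC3 cells it was at 0.648 and 0.550 RPKM in siCtrl and 0.126 and 0.214 RPKM in siOC2. LNCaP EV libraries held 2.89 to 11.5 RPKM of ONECUT2, whereas the OC2 libraries list no value for it, so that overexpression could not be checked from this gene. CA9, a carbonic anhydrase induced by low oxygen, rose with hypoxia in siCtrl PC3 cells (log2 fold change 6.07, adjusted p = 0.00515) and in EV LNCaP cells (2.90, adjusted p = 0.00234). KLK3, the prostate-specific antigen gene that marks LNCaP, was listed at 0 in all PC3 libraries and at 1842 to 3997 RPKM in LNCaP. The 5 LNCaP markers summed to 2.17 to 7.68 RPKM in PC3 and to 2680 to 5827 RPKM in LNCaP, and the 4 PC3 markers to 311 to 1157 RPKM in PC3 and to 24.01 to 58.7 RPKM in LNCaP. Read totals cannot be had from RPKM. The spacing of the lowest values gave estimated depths between 0.348 and 1.15 of that of siCtrl normoxia replicate 2 in PC3, with siCtrl normoxia replicate 1 (0.418), siCtrl hypoxia replicate 2 (0.382) and siRNA1 hypoxia (0.348) the shallowest, and between 0.662 and 1.21 of that of EV normoxia replicate 1 in LNCaP.

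CCND1 (chr11:69455924-69469242, plus strand, GRCh37) encodes the cyclin most often amplified in solid tumours, and together with CDK4 it was the most abundant member in either line. In PC3 cells it stood at 163 and 165 RPKM in normoxic siCtrl, 124 and 97.1 RPKM in normoxic siOC2, 103 and 86.1 RPKM in hypoxic siCtrl, and 75.4 and 85.7 RPKM in hypoxic siOC2. All other PC3 libraries lay below the normoxic siCtrl pair. In LNCaP cells the order was turned: 66.7 and 68.1 RPKM in normoxic EV, 90.5 and 91.4 RPKM in normoxic OC2, 131 and 122 RPKM in hypoxic EV, and 139.7 and 133 RPKM in hypoxic OC2. Here the normoxic EV pair was the lowest, and neither pair of a normoxic group overlapped a hypoxic one.

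CCND1 rose in hypoxic LNCaP cells, by 0.91 on the log2 scale with EV (SE 0.09, adjusted p = 0.000288) and by 0.58 with OC2 (SE 0.09, adjusted p = 0.00278). OC2 raised it in normoxia by 0.43 (SE 0.09, adjusted p = 0.0313), from 67.4 ± 0.95 to 90.9 ± 0.62 RPKM (mean ± SD, n = 2), and this adjusted p was 0.165 when the 2 groups were fitted on their own and 0.051 to 0.119 when any 1 of the 8 libraries was left out. Under hypoxia the OC2 difference was 0.10 (adjusted p = 0.477), with a 95% interval of -0.10 to 0.30, and the interaction was -0.33 (SE 0.12, adjusted p = 0.246). In PC3 cells CCND1 had log2 fold changes of -0.80 with hypoxia in siCtrl (SE 0.24, adjusted p = 0.414) and -0.58 with siOC2 in normoxia (SE 0.24, adjusted p = 0.517), and neither was called. Its 3' neighbour LTO1 on the opposite strand shares 497 exonic bases with it in the annotation. The library kit kept strand, and whether the counting used it is not given in the sources used here.

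CCND2 (chr12:4378937-4414519, plus strand) encodes the D-type cyclin found in gonads, brain and lymphoid cells. It was at 0.00635 to 0.194 RPKM in the 8 LNCaP libraries, so no test was made in that line. PC3 cells held 3.56 and 4.36 RPKM in normoxic siCtrl, 4.82 and 9.47 RPKM in normoxic siOC2, 2.89 and 2.45 RPKM in hypoxic siCtrl, and 3.17 and 9.69 RPKM in hypoxic siOC2. The second siOC2 library of each oxygen level, made with siRNA2, carried the high values. The siOC2 and siCtrl pairs did not overlap at either oxygen level, with log2 fold changes of 0.77 in normoxia (SE 0.54, adjusted p = 0.724) and 1.04 in hypoxia (SE 0.54, adjusted p = 0.482). With hypoxia it differed by -0.55 in siCtrl (SE 0.54, adjusted p = 0.905), where the pairs did not overlap either. The antisense gene CCND2-AS1 shares 162 exonic bases with it, and ENSG00000285901, annotated as protein-coding on the same strand, shares 999.

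CCND3 (chr6:41902672-42018095, minus strand) encodes the most widely expressed D-type cyclin. In normoxic PC3 cells it was at 16.2 and 13.9 RPKM in siCtrl and at 39.4 and 22.6 RPKM in siOC2 (log2 fold change 0.99, SE 0.33, adjusted p = 0.416), just under the fold limit. In hypoxia it was at 10.6 and 10.9 RPKM in siCtrl and at 36.2 and 25.7 RPKM in siOC2, a mean of 10.8 ± 0.15 against 30.9 ± 7.5 RPKM (SD, n = 2). It was called there, 2.82-fold higher with siOC2 (log2 fold change 1.496, SE 0.33, adjusted p = 0.128). At both oxygen levels the siOC2 libraries lay above every siCtrl library of the same oxygen level. The PC3 markers moved with the same contrast: 2 of 4 were called down with siOC2 in hypoxia (VIM, -2.26, adjusted p = 0.238, and CD44, -1.03, adjusted p = 0.409) and 0 in normoxia, and their summed level was 656 to 800 RPKM in normoxic siCtrl, 370 to 460 RPKM in normoxic siOC2, 989 to 1157 RPKM in hypoxic siCtrl, and 311 to 709 RPKM in hypoxic siOC2. Without siRNA1 in hypoxia VIM was at -1.04, still called, and CD44 at -0.27, not called, and the CD44 call was lost without any other library but siRNA2 in hypoxia. Their part in the siOC2 results was not tested.

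In LNCaP cells CCND3 was at 23.7 and 29.3 RPKM in normoxic EV, 28.1 and 25.6 RPKM in normoxic OC2, 33.3 and 30.9 RPKM in hypoxic EV, and 18.8 and 24.2 RPKM in hypoxic OC2. The normoxic pairs overlapped and the hypoxic pairs did not. OC2 lowered it under hypoxia by 0.59 on the log2 scale (log2 fold change -0.59, SE 0.15, adjusted p = 0.0442), and in normoxia the difference was 0.03 (95% interval -0.32 to 0.38). The hypoxic fall did not pass with upper-quartile scaling (adjusted p = 0.0592), without the filter on low values (0.0817) or without any hypoxic library except OC2 replicate 2 (0.155 to 0.273), and the interaction was -0.61 (SE 0.22, adjusted p = 0.221).

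**Figure D1:**
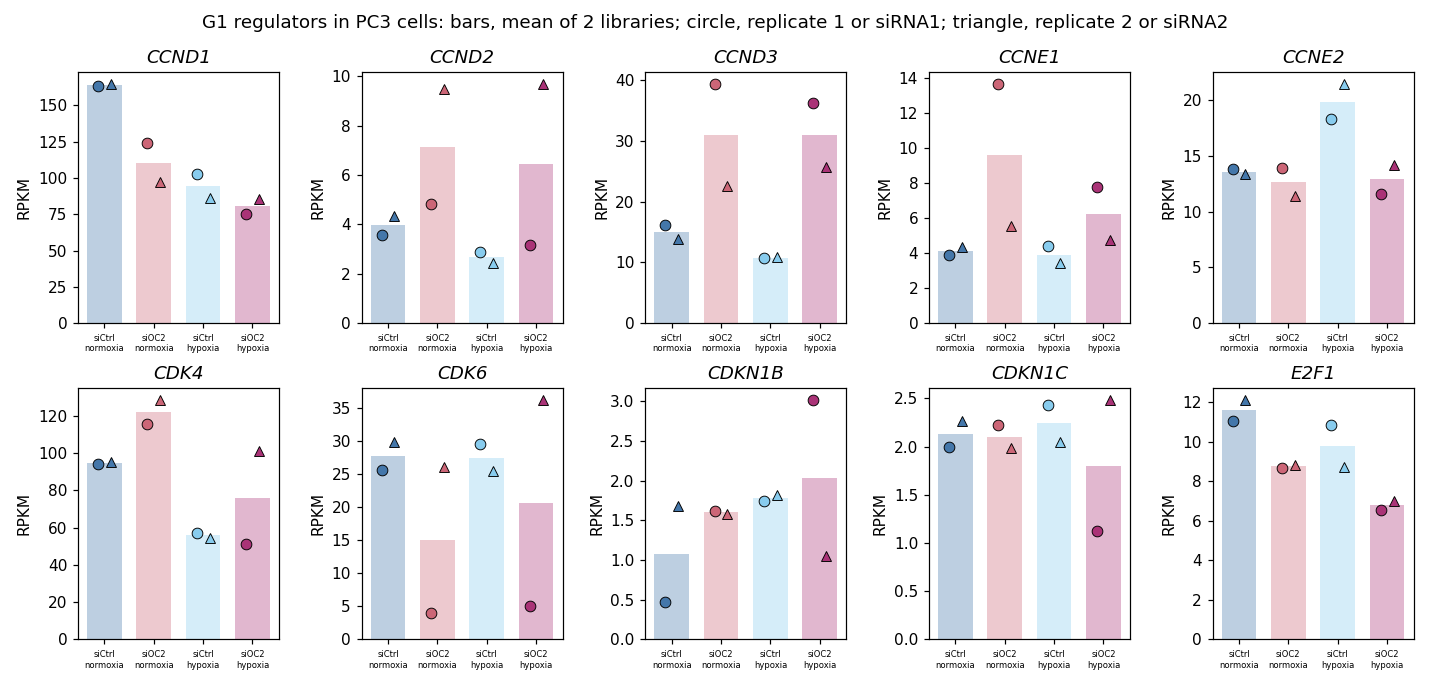
RPKM of the 10 G1 regulators (y axis, linear from 0) in the 4 PC3 groups (x axis), with bars at the mean of 2 libraries, circles for replicate 1 or siRNA1 and triangles for replicate 2 or siRNA2. CCND3 lay between 22.6 and 39.4 RPKM in the 4 siOC2 libraries and between 10.6 and 16.2 RPKM in the 4 siCtrl libraries, and CDK6 was low only in the 2 siRNA1 libraries.

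CDK4 (chr12:58141510-58149796, minus strand) and CDK6 (chr7:92234235-92465887, minus strand) encode the kinases that D-type cyclins activate. CDK4 was at 94.4 and 95.2 RPKM in normoxic siCtrl, 115 and 128 RPKM in normoxic siOC2, 57.4 and 54.7 RPKM in hypoxic siCtrl, and 51.0 and 101 RPKM in hypoxic siOC2 in PC3 cells. Its normoxic and hypoxic siCtrl pairs lay apart (log2 fold change -0.76, SE 0.33, adjusted p = 0.666), and it was not called. That SE also holds the spread of the siOC2 pairs, such as 51.0 and 101 RPKM in hypoxia. The difference with hypoxia in siOC2 was also -0.76 (SE 0.33, adjusted p = 0.719), from a pair in which the siRNA1 library was at the level of hypoxic siCtrl and the siRNA2 library was not. With siOC2 in normoxia its difference was 0.36 (SE 0.33, adjusted p = 0.815), with the pairs apart.

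In LNCaP cells CDK4 was at 124 and 142 RPKM in normoxic EV, 93.0 and 112 RPKM in normoxic OC2, 102 and 116 RPKM in hypoxic EV, and 100 and 95.8 RPKM in hypoxic OC2. The normoxic EV pair was the highest of the line. The difference with OC2 in normoxia was -0.38 (SE 0.13, adjusted p = 0.117), that with OC2 in hypoxia -0.15 (adjusted p = 0.476), and that with hypoxia in EV -0.29 (adjusted p = 0.112). TSPAN31, on the opposite strand, shares 1369 exonic bases with CDK4.

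The promoter of CDK4 is shown because its window held the most matches to the core of the hypoxia response element, with both strands counted. It was 1 of 9 promoter windows matched to 6 members in RefSeq (250 bases before to 50 after a start, GRCh38.p14). The letters searched were ACGTG and GCGTG on both strands, and 48.4% of all 35116 windows of this length hold at least 1. In the 250 bases before the CDK4 start (chr12:57752311-57752560, minus strand), capitals mark 3 places where ACGTG is read on both strands, which gave 6 matches. Each place reads CACGTG, which is the same on both strands. These letters are also part of the MYC and MAX motifs that the paper lists, and which factor binds there was not tested.
CDK4: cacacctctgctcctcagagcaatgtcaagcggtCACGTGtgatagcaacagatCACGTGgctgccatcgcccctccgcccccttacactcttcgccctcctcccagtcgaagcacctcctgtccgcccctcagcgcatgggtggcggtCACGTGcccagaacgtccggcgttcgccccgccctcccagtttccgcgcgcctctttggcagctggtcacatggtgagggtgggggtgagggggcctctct
In the other windows, GCGTG or ACGTG was found for CDKN1B (1 match), for 1 of 3 CCND3 windows (1 match) and for both CDK6 windows (3 and 2 matches). The 3 matches of the first CDK6 window lie at separate places, so that by places it held as many as CDK4. Neither the CCNE1 nor the E2F1 window held a core, and ATCAAT or ATCGAT, the core that ONECUT factors recognise, was in none of the 9 windows against 6.96% of all windows. A match is a string of letters, and its absence from a window says nothing about the factor.

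CDK6 was far apart in the libraries of the siOC2 groups. PC3 siCtrl cells held 25.6 and 29.8 RPKM in normoxia and 29.5 and 25.4 RPKM in hypoxia. The siOC2 libraries were at 3.98 and 26.1 RPKM in normoxia and at 5.12 and 36.2 RPKM in hypoxia, with the low value in siRNA1 each time. As a pair, siOC2 therefore differed from siCtrl by -1.42 in normoxia (SE 0.98, adjusted p = 0.717) and by -0.998 in hypoxia (SE 0.98, adjusted p = 0.74), with overlap. LNCaP cells held little CDK6: 1.24 and 2.15 RPKM in normoxic EV, 1.88 and 2.16 RPKM in normoxic OC2, 1.14 and 0.794 RPKM in hypoxic EV, and 1.11 and 1.56 RPKM in hypoxic OC2. Its hypoxic libraries lay below its normoxic ones within each arm, with log2 fold changes of -0.72 in EV (SE 0.31, adjusted p = 0.107) and -0.58 in OC2 (SE 0.31, adjusted p = 0.197).

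CCNE1 (chr19:30302898-30315219, plus strand) and CCNE2 encode the cyclins that activate CDK2 at the end of G1. CCNE1 in PC3 cells was at 3.89 and 4.35 RPKM in normoxic siCtrl, 13.7 and 5.56 RPKM in normoxic siOC2, 4.42 and 3.41 RPKM in hypoxic siCtrl, and 7.75 and 4.76 RPKM in hypoxic siOC2. The siOC2 pairs lay above the siCtrl pairs, and the siRNA1 library was the higher of each. CCNE1 was called in normoxia, 2.096-fold higher with siOC2 (log2 fold change 1.07, SE 0.46, adjusted p = 0.534), and without siRNA1 the log2 fold change was 0.43 and the call was lost, as it was with a pseudocount of 1 or upper-quartile scaling. Under hypoxia the difference was 0.63 (SE 0.46, adjusted p = 0.632).

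In LNCaP cells CCNE1 was at 20.1 and 19.7 RPKM in normoxic EV, 14.6 and 17.6 RPKM in normoxic OC2, 20.6 and 21.9 RPKM in hypoxic EV, and 15.5 and 17.5 RPKM in hypoxic OC2. OC2 libraries lay below EV libraries at both oxygen levels, with log2 fold changes of -0.31 in normoxia (SE 0.12, adjusted p = 0.179) and -0.36 in hypoxia (SE 0.12, adjusted p = 0.0954), neither past the threshold. With hypoxia in EV the difference was 0.09 (adjusted p = 0.589).

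CCNE2 in PC3 cells was at 13.8 and 13.3 RPKM in normoxic siCtrl, 13.9 and 11.4 RPKM in normoxic siOC2, 18.3 and 21.4 RPKM in hypoxic siCtrl, and 11.6 and 14.1 RPKM in hypoxic siOC2. The hypoxic siCtrl pair stood above all other PC3 libraries, by 0.54 over normoxic siCtrl (SE 0.27, adjusted p = 0.73) and with hypoxic siOC2 at -0.62 against it (SE 0.27, adjusted p = 0.408). In LNCaP cells it was at 18.3 and 14.4 RPKM in normoxic EV, 12.5 and 14.0 RPKM in normoxic OC2, 13.8 and 17.5 RPKM in hypoxic EV, and 10.01 and 13.3 RPKM in hypoxic OC2. The OC2 difference was -0.29 in normoxia (SE 0.19, adjusted p = 0.374) and -0.43 in hypoxia (SE 0.19, adjusted p = 0.179), with the pairs apart at both oxygen levels. INTS8, on the opposite strand, shares 1629 exonic bases with CCNE2.

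CDKN1C (chr11:2904443-2907005, minus strand) encodes p57, an imprinted inhibitor of cyclin-CDK complexes, and it changed more than any other member. In LNCaP cells it was at 0.7503 and 0.731 RPKM in normoxic EV, 8.17 and 9.34 RPKM in normoxic OC2, 2.47 and 2.68 RPKM in hypoxic EV, and 15.0 and 15.0 RPKM in hypoxic OC2. No 2 groups overlapped, and the order was normoxic EV, hypoxic EV, normoxic OC2 and hypoxic OC2. OC2 raised CDKN1C 10.5-fold in normoxia (log2 fold change 3.39, SE 0.14, adjusted p = 1.67e-05) and 5.65-fold in hypoxia (2.50, SE 0.14, adjusted p = 5.12e-05). Hypoxia raised it 3.18-fold with EV (1.67, SE 0.14, adjusted p = 0.000154) and 1.71-fold with OC2 (0.77, SE 0.14, adjusted p = 0.00632). The fold with OC2 was smaller in hypoxia by 0.90 on the log2 scale (interaction -0.90, SE 0.20, adjusted p = 0.101), while on the RPKM scale the gain was 8.01 in normoxia and 12.4 in hypoxia.

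In PC3 cells CDKN1C was not called in any comparison. It was at 1.99 and 2.27 RPKM in normoxic siCtrl, 2.22 and 1.98 RPKM in normoxic siOC2, 2.44 and 2.04 RPKM in hypoxic siCtrl, and 1.12 and 2.48 RPKM in hypoxic siOC2, and the siOC2 and siCtrl pairs overlapped at both oxygen levels. The siOC2 difference was -0.02 in normoxia (95% interval -1.02 to 0.98) and -0.39 in hypoxia (95% interval -1.39 to 0.61). Over the 8 LNCaP libraries, the genes whose log2 levels went most closely with CDKN1C were NXF1 (Pearson r = 0.985), PLD2 (r = 0.985) and ARL3 (r = 0.984), a description over libraries that share 4 groups.

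**Figure D2:**
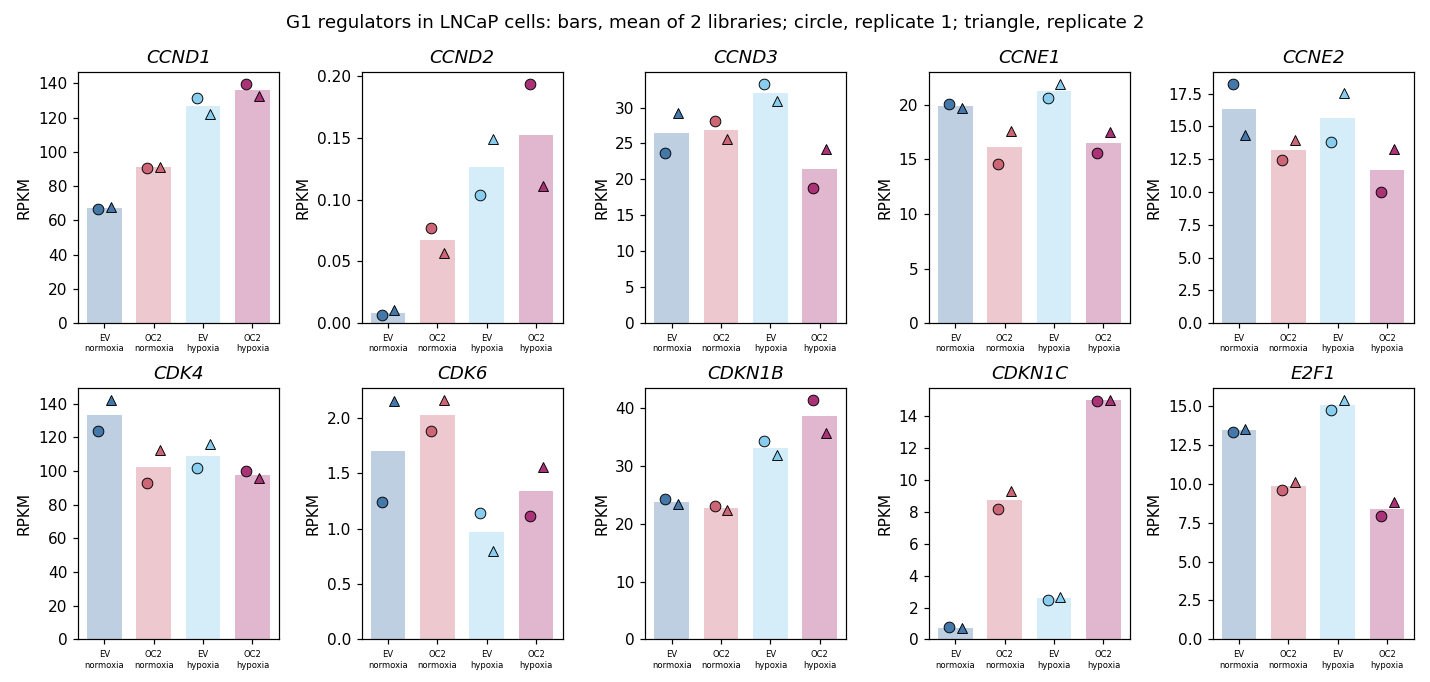
RPKM of the 10 G1 regulators (y axis, linear from 0) in the 4 LNCaP groups (x axis), with bars at the mean of 2 libraries, circles for replicate 1 and triangles for replicate 2. CDKN1C was at 0.731 and 0.7503 RPKM in normoxic EV and at 15.0 RPKM in both hypoxic OC2 libraries, and E2F1 was at most 10.1 RPKM in the OC2 libraries and at least 13.3 RPKM in the EV libraries.

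CDKN1B (chr12:12838432-12875303, plus strand) encodes p27, the inhibitor whose loss is common in prostate cancer and which is controlled largely at the protein level. LNCaP cells held 24.2 and 23.4 RPKM in normoxic EV, 23.1 and 22.5 RPKM in normoxic OC2, 34.3 and 31.9 RPKM in hypoxic EV, and 41.4 and 35.7 RPKM in hypoxic OC2. All 4 hypoxic libraries lay above all 4 normoxic ones. CDKN1B rose with hypoxia by 0.47 on the log2 scale in EV (SE 0.11, adjusted p = 0.012) and by 0.75 in OC2 (SE 0.11, adjusted p = 0.00226). Without EV hypoxia replicate 1 or replicate 2 the first of these had an adjusted p of 0.1 and 0.0503. OC2 itself gave -0.06 in normoxia (SE 0.11, adjusted p = 0.763) and 0.22 in hypoxia (SE 0.11, adjusted p = 0.229), where the hypoxic pairs lay apart.

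In PC3 cells CDKN1B was near the lower limit, at 0.471 and 1.69 RPKM in normoxic siCtrl, 1.62 and 1.58 RPKM in normoxic siOC2, 1.74 and 1.82 RPKM in hypoxic siCtrl, and 3.02 and 1.05 RPKM in hypoxic siOC2. In normoxic siCtrl and in hypoxic siOC2 the pair lay further apart than the means of any groups. Its largest log2 fold change in that line was 0.90 with hypoxia in siCtrl (SE 0.66, adjusted p = 0.842).

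The CDKN1B promoter is shown because the gene rose with hypoxia in both LNCaP arms. Its window holds 1 hypoxia response element core, GCGTG on the minus strand, 185 bases before the start (chr12:12717118-12717367, plus strand, GRCh38.p14). Such a core is in 48.4% of all 35116 windows, and its part in the rise was not tested. The core is in capitals as read on the plus strand.
CDKN1B: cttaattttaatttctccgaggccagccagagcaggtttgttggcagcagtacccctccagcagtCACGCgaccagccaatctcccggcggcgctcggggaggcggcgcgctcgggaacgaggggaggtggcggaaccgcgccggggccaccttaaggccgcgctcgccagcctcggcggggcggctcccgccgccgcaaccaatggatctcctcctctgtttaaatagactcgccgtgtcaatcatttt

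E2F1 (chr20:32263283-32274191, minus strand) encodes the activator that the retinoblastoma protein holds back until the G1 kinases act. In LNCaP cells it was at 13.3 and 13.5 RPKM in normoxic EV, 9.59 and 10.1 RPKM in normoxic OC2, 14.7 and 15.4 RPKM in hypoxic EV, and 7.94 and 8.83 RPKM in hypoxic OC2. The OC2 libraries lay below every EV library. E2F1 fell by 0.84 on the log2 scale with OC2 in hypoxia, from 15.1 ± 0.44 to 8.38 ± 0.63 RPKM (SD, n = 2; SE 0.11, adjusted p = 0.00377). In normoxia the difference was -0.44 (SE 0.11, adjusted p = 0.0577), and the interaction was -0.39 (SE 0.16, adjusted p = 0.26). With hypoxia alone it was 0.16 in EV (adjusted p = 0.288) and -0.23 in OC2 (adjusted p = 0.154), and the pairs lay apart in each.

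In PC3 cells E2F1 was at 11.1 and 12.1 RPKM in normoxic siCtrl, 8.68 and 8.84 RPKM in normoxic siOC2, 10.9 and 8.72 RPKM in hypoxic siCtrl, and 6.55 and 7.03 RPKM in hypoxic siOC2. The siOC2 pairs lay below the siCtrl pairs of the same oxygen level, and the differences of -0.40 in normoxia (SE 0.26, adjusted p = 0.703) and -0.51 in hypoxia (SE 0.26, adjusted p = 0.479) did not pass. Hypoxia gave -0.25 in siCtrl (adjusted p = 0.918) and -0.36 in siOC2 (adjusted p = 0.763).

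The E2F1 promoter is shown because E2F1 fell with OC2 in hypoxic LNCaP cells beside genes that E2F factors regulate. The letters TTTCCCGC, TTTCGCGC, TTTGCCGC and TTTGGCGC were searched on both strands and are present in 3.31% of the 35116 windows. E2F1 was the only member of the 6 matched whose window held any: TTTGCCGC on the minus strand 33 bases and TTTGGCGC on the plus strand 20 bases before the start. The part of these matches in the fall of E2F1 or of the other genes was not tested. Both matches are in capitals in the 250 bases before the start (chr20:33686386-33686635, minus strand, GRCh38.p14), with the first as read along the printed strand.
E2F1: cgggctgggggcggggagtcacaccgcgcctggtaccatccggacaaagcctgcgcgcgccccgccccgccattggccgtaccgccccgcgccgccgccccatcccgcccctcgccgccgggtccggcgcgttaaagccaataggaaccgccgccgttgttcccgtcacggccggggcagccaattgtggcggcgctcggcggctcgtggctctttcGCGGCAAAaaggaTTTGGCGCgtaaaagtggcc

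Counted over the members, OC2 overexpression in LNCaP called 1 of 9 in normoxia, where 3.29% of all genes were called, and 1 of 9 in hypoxia, where 4.47% were. Both were CDKN1C. By the adjusted p alone, 2 of 9 members passed in normoxia (CCND1 and CDKN1C) against 5.26% of all genes, and 3 of 9 in hypoxia (CCND3, CDKN1C and E2F1) against 11.5%. Hypoxia called 1 of 9 with EV (CDKN1C) against 7.95% of all genes, and none with OC2 against 6.84%, where limma gave 3 of 9 members and 40.6% of all genes an unadjusted P under 0.05. By the adjusted p, 3 of 9 members passed in each hypoxia comparison (CCND1, CDKN1B and CDKN1C), against 32.3% of all genes with EV and 26.9% with OC2, so that the members passed about as often as genes in general. No member was called for the interaction, against 3.7% of all genes, and none passed the adjusted p, against 0.244%. At an unadjusted P under 0.05 by limma there were 4 members (CCND1, CCND3, CDKN1C and E2F1), against 16.9% of all genes. Comparisons of a line share libraries, so that these counts are not independent of each other.

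Among PC3 comparisons, siOC2 called 1 of 10 members in normoxia (CCNE1), where 5.21% of all genes were called, and 1 of 10 in hypoxia (CCND3), where 7.5% were. No member passed the adjusted p, which 0.00819% of all genes did in normoxia and 0.0901% in hypoxia. By limma's unadjusted P under 0.05 there were 3 of 10 members in normoxia, against 9.2% of all genes, and 2 of 10 in hypoxia, against 12.1%. Hypoxia called no member with siCtrl, against 3.86% of all genes, or with siOC2, against 3.46%, and none passed the adjusted p, against 0.27% and 0.00819%. At an unadjusted P under 0.05 there were 2 members with siCtrl (CCND1 and CDK4), against 7.38% of all genes, and 1 with siOC2 (CDK4), against 6.71%. For the interaction no member was called, against 0.942% of all genes, and no gene passed the adjusted p (0%), while 126 genes (1.03%) and 0 members had an unadjusted P under 0.05 by limma.

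**Figure D3:**
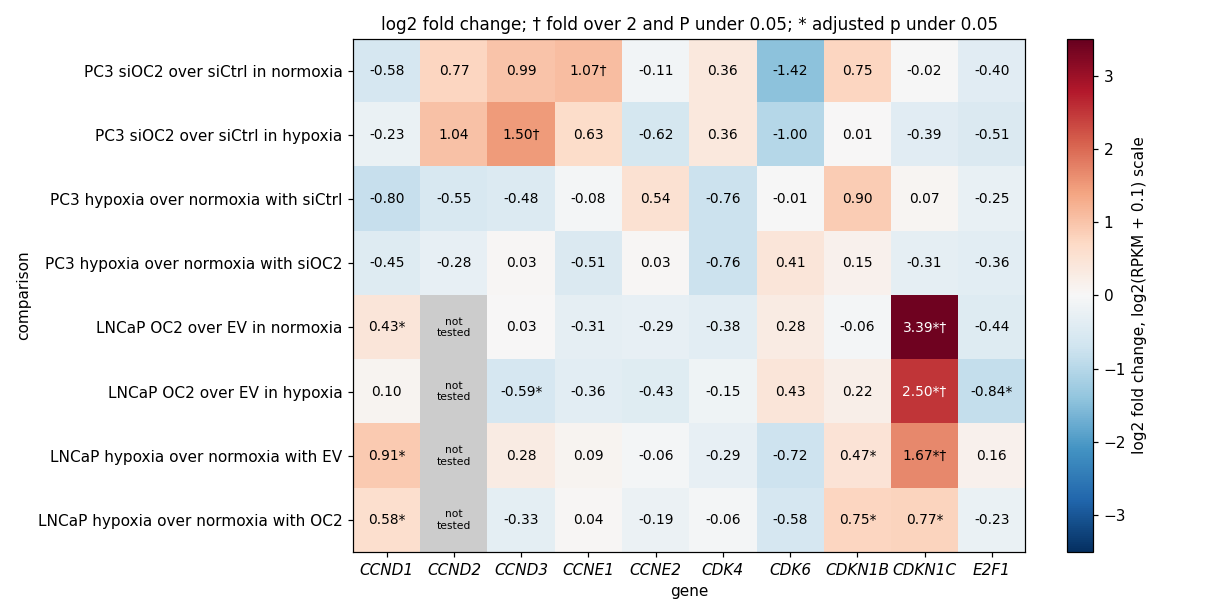
log2 fold changes on the log2(RPKM + 0.1) scale (colour and printed value) of the 10 members (x axis) in 8 comparisons (y axis), each the first-named group over the second with 2 libraries a group. A dagger marks a fold over 2 with an unadjusted P under 0.05, an asterisk an adjusted p under 0.05, and grey a gene not tested; CDKN1C carries the largest values, 3.39 and 2.50, with OC2 in LNCaP cells.

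Because the siOC2 group held a pair of different siRNAs, each siRNA was also set against the 4 siCtrl libraries over both oxygen levels, with oxygen as a term, a comparison added after the values were seen. siRNA1 called 3 of 10 members (CCND3, CCNE1 and CDK6), where 13.1% of all genes were called, and 3 of 10 passed the adjusted p, where 21.1% did. siRNA2 called 1 of 10 (CCND2), where 13.7% of all genes were called, and 3 of 10 passed the adjusted p (CCND2, CCND3 and CDK4), where 21.3% did. CCND3 rose with both, by 1.56 on the log2 scale with siRNA1 (SE 0.20, adjusted p = 0.000605) and by 0.92 with siRNA2 (SE 0.20, adjusted p = 0.00894), though without the hypoxic siRNA2 library the second was 0.65 (adjusted p = 0.229). The siRNAs differed in CCND3 by 0.65 (SE 0.23, adjusted p = 0.0661).

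CDK6 fell 5.98-fold with siRNA1 (log2 fold change -2.58, SE 0.20, adjusted p = 3.58e-05) and differed by 0.16 with siRNA2 (SE 0.20, adjusted p = 0.601). CCNE1 rose by 1.34 with siRNA1 (SE 0.24, adjusted p = 0.00287) and differed by 0.36 with siRNA2 (SE 0.24, adjusted p = 0.308). CCND2 rose by 1.54 with siRNA2 (SE 0.24, adjusted p = 0.00125) and differed by 0.27 with siRNA1 (SE 0.24, adjusted p = 0.459). CDK4 rose by 0.64 with siRNA2 (SE 0.19, adjusted p = 0.0331), under the fold limit. This result was lost, with an adjusted p over 0.05, without any of 6 libraries or without the filter on low values. Set against each other, the siRNAs called 2 of 10 members (CCND2 and CDK6), where 19.3% of all genes were called, and 3 of 10 passed the adjusted p (CCND2, CCNE1 and CDK6), where 23.9% did. The CDK6 difference was -2.74 (siRNA1 over siRNA2, SE 0.23, adjusted p = 4.73e-05). E2F1 (-0.49 and -0.42), CCND1 (-0.36 and -0.45) and CCNE2 (-0.36 and -0.37) had like values with siRNA1 and siRNA2, none past the adjusted threshold. The labels number the siOC2 libraries by siRNA, so that a batch shared by the libraries of 1 siRNA cannot be told apart from the siRNA.

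**Figure D4:**
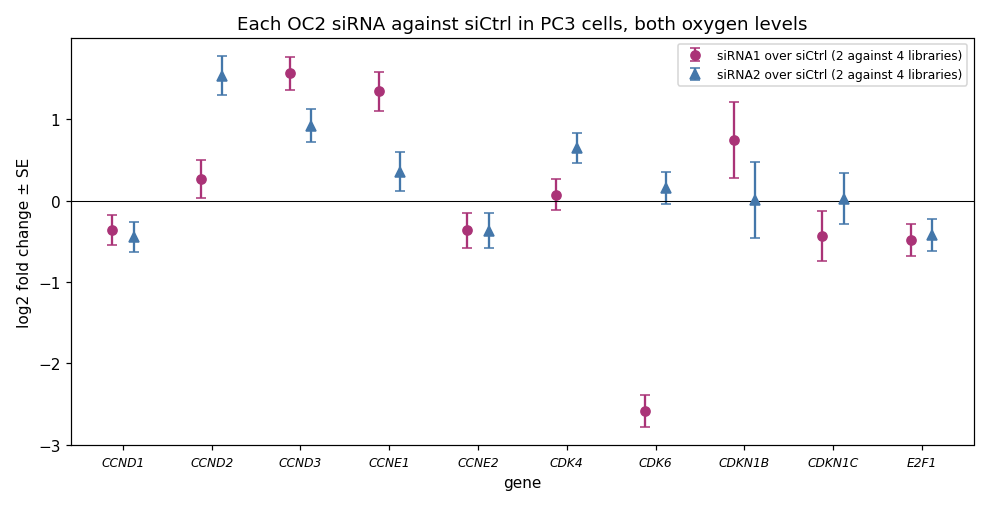
log2 fold change (y axis, bars SE) of each member (x axis) for siRNA1 (circles) and siRNA2 (triangles), 2 libraries each, over the 4 siCtrl libraries in PC3 cells at both oxygen levels. CCND3 lies above 0 with both (1.56 and 0.92), whereas CDK6 is at -2.58 with siRNA1 and at 0.16 with siRNA2.

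Among 22 other genes of G1 control, all tested in both lines, siOC2 called CDKN1A up (p21, the inhibitor induced by p53) and CDKN2C down (p18, an inhibitor of CDK4 and CDK6) in normoxic PC3 cells. CDKN1A was at 6.26 and 6.98 RPKM in normoxic siCtrl, 20.6 and 27.6 RPKM in normoxic siOC2, 9.26 and 9.93 RPKM in hypoxic siCtrl, and 17.6 and 33.6 RPKM in hypoxic siOC2. Every siOC2 library lay above every siCtrl library. The log2 fold changes were 1.83 in normoxia (SE 0.35, adjusted p = 0.167) and 1.34 in hypoxia (SE 0.35, adjusted p = 0.183), called at both oxygen levels, and without siRNA2 the hypoxic value was 0.87 and no longer called. In hypoxia CDKN2B (p15, a further inhibitor of CDK4 and CDK6) was called up as well (1.07, adjusted p = 0.177), though not without siRNA1 (0.88) or siCtrl hypoxia replicate 2 (0.998). CDKN2C was at -1.17 in normoxia (adjusted p = 0.503) and at -0.65, not called, without siRNA1, and the call was also lost without any 1 siCtrl library (-1.25 to -1.08). Over all genes, 5.21% were called with siOC2 in normoxia and 7.5% in hypoxia. The list's median was 0.10 in normoxia and -0.08 in hypoxia, beside 0.13 and -0.03 over all genes.

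LNCaP cells held far more CDKN1A, at 72.9 and 95.7 RPKM in normoxic EV and 154.6 and 171.5 RPKM in normoxic OC2, and at 108 and 100.5 RPKM in hypoxic EV and 208 and 181 RPKM in hypoxic OC2. CDKN1A rose with OC2 by 0.96 in normoxia (adjusted p = 0.00948) and by 0.90 in hypoxia (adjusted p = 0.0078), under the fold limit. By the adjusted p, 2 of the 22 rose with OC2 in normoxia (CDKN1A and CDKN2D) and 2 fell (TFDP1, the partner of E2F proteins, and CKS1B, a cofactor in p27 degradation), and in hypoxia CDKN1A rose and TFDP1 fell. Over all genes 5.26% passed in normoxia and 11.5% in hypoxia, in either direction. With hypoxia, CDKN2D (p19, an inhibitor of CDK4 and CDK6) was called up in EV (1.06, adjusted p = 0.00167), the only one of the 22 called in a hypoxia comparison of either line, and it was under the fold limit without EV normoxia replicate 1 (0.93) or EV hypoxia replicate 1 (0.995). Over all genes, 7.95% were called with hypoxia in EV and 6.84% in OC2 LNCaP cells. In PC3 cells 0 of the 22 were called with hypoxia, against 3.86% of all genes with siCtrl and 3.46% with siOC2.

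E2F target genes of the G1/S transition were followed as a list of 17, of which 16 were tested in PC3 and 17 in LNCaP cells. With OC2 in LNCaP cells the median was -0.39 in normoxia, with 16 of 17 below 0, and -0.45 in hypoxia, with 17 of 17 below 0, beside -0.08 and -0.01 over all genes. By the adjusted p, MYBL2 fell in normoxia (-0.68, adjusted p = 0.012) and 7 of 17 fell in hypoxia, against the 11.5% of all genes that passed in either direction. The 7 were TK1 (-0.90), which salvages thymidine, MYBL2 (-0.73), MCM2 (-0.71), which is part of the replicative helicase, E2F8 (-0.68), RRM2 (-0.63), a subunit of ribonucleotide reductase, PCNA (-0.47) and TYMS (-0.46). None reached the fold limit of 2.

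With siOC2 in PC3 cells the same list had a median of -0.43 in normoxia, with 14 of 16 below 0, and -0.65 in hypoxia, with 15 of 16 below 0, beside 0.13 and -0.03 over all genes. MCM5, another helicase subunit, was called down in hypoxia (-1.27, adjusted p = 0.319), at 6.78 RPKM with siRNA1 and 20.1 RPKM with siRNA2 against 25.2 and 31.6 RPKM in siCtrl. Without the siRNA1 library its log2 fold change was -0.49 and the call was lost, as it was without either hypoxic siCtrl library (-1.43 and -1.10). Over all genes, 7.5% were called with siOC2 in hypoxic PC3 cells. No target passed the adjusted p with siOC2. With hypoxia the medians were -0.04 with siCtrl and -0.17 with siOC2 in PC3 cells, beside -0.07 and -0.22 over all genes. In LNCaP cells they were -0.13 with EV, where CDC6 and CDT1, which load the helicase, fell (adjusted p = 0.0124 and 0.0442), and -0.27 with OC2, where 4 of 17 fell, beside 0.02 and 0.09 over all genes. These 2 and 4 of 17 stand against 32.3% and 26.9% of all genes that passed the adjusted p, a share the list did not exceed. Upper-quartile scaling moved the median of all genes most for hypoxia with siOC2 in PC3 cells, from -0.22 to -0.09, and for the PC3 interaction, from -0.17 to -0.01. The medians of the targets with OC2 or siOC2 stayed between -0.31 and -0.58 under that scaling.

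**Figure D5:**
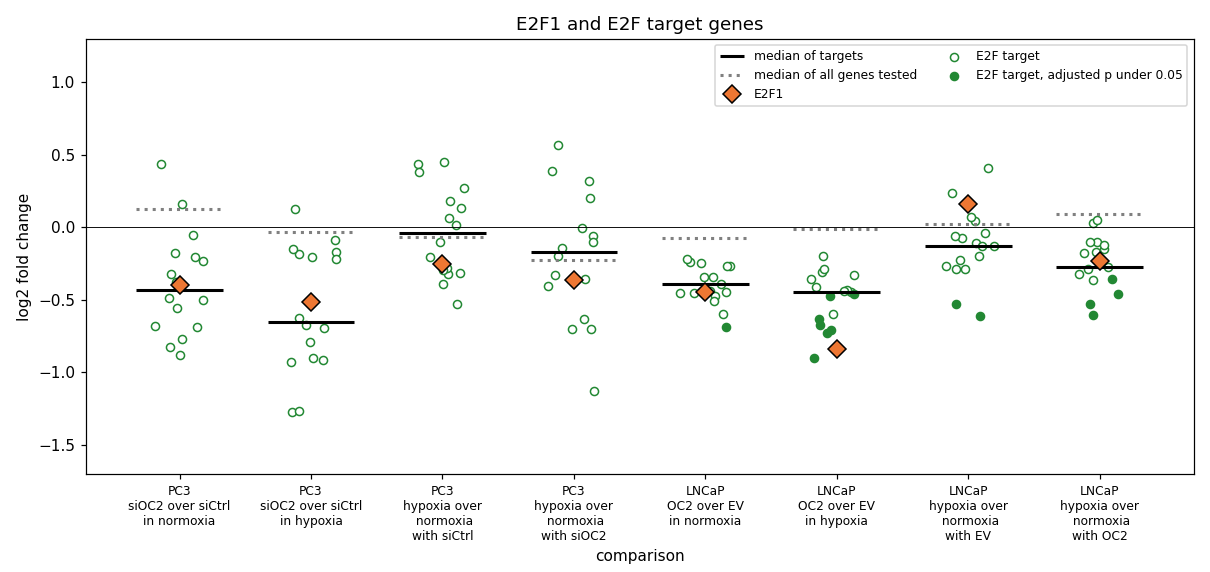
log2 fold change (y axis) of E2F target genes (circles, filled where the adjusted p was under 0.05) and of E2F1 (diamonds) in 8 comparisons (x axis), with solid lines at the median of the targets and dotted lines at the median of all genes tested. With OC2 in hypoxic LNCaP cells all 17 targets lie below 0, with a median of -0.45, and E2F1 lies at -0.84. CCNA2, which has exact 0 values in LNCaP libraries, lies outside the y axis with OC2 in normoxic LNCaP cells and with hypoxia in OC2 LNCaP cells.

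Hypoxia markers gave the scale of the oxygen response beside the members. Of 8 listed, 7 were called up in PC3 cells with siCtrl and 7 with siOC2, with medians of 2.26 and 2.04, and all 7 tested were called up in each LNCaP arm, with medians of 2.28 and 2.53. In the same comparisons the members' medians were -0.16 and -0.29 in PC3 cells and 0.16 and -0.06 in LNCaP cells. VEGFA and SLC2A1, of the same markers, were called down with siOC2 in normoxic PC3 cells (-1.66 and -1.15), and VEGFA also in hypoxic ones (-1.60). Both normoxic calls rested on siRNA2, without which the values were -0.61 and -0.68, and both were also lost without siCtrl normoxia replicate 2 (-1.52 and -1.11). The hypoxic VEGFA call was lost without siRNA2 (-1.22) or either hypoxic siCtrl library (-1.49 and -1.71).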

How the data were processed

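RNA from PC3 and LNCaP cells was sequenced by the authors from stranded polyA libraries, trimmed, aligned to hg19 with STAR 2.4.2a and quantified with Cufflinks 2.1.1 on a GENCODE annotation. The authors deposited RPKM values per gene, one table per line, normalized to transcript length and mapped reads. Counts were not used here. ChIP-Seq made up the other 12 samples of the series, which are left out, and the tables were fitted apart, so that levels of the lines stand side by side with no test.

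Values were analysed in R 4.3.3 with limma 3.58.1 (trend on) as log2(RPKM + 0.1), with a minimum of 1 RPKM in 2 of 8 libraries and 4 groups of 2 libraries per line, over 10 comparisons. LNCaP genes with missing values were left out. The fits were tested on simulated data. Exact 0 values beside a median over 1 RPKM were met in 21 genes of PC3 and 45 of LNCaP and were used as 0. Alternatives were another pseudocount (1), no filter, a filter of 5 RPKM, upper-quartile scaling, a replicate block, a fit to the groups compared, exact 0 values as missing, another threshold and leaving out each library; the comparison of siRNAs, a crossed block and leaving out libraries for called list genes were added after the data were seen. With RPKM alone, depth per library was estimated only relative to 1 library of each line, from the most frequent ratio of values under 0.3 RPKM.

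The members, lists and tests were chosen with earlier results of these data known. Members are named in full. Other genes come from the lists, up to 6 per list and comparison by fold among those called. List genes past the adjusted p alone (CDKN1A and CDKN2D with OC2, TFDP1, CKS1B and the E2F targets other than MCM5 and CCNA2) were named after their values were seen. So were CCNA2, VIM and CD44. For a member called in at least 2 comparisons of a line, the 3 genes most correlated with it are named. Gene positions are GRCh37 (GENCODE) and promoters RefSeq on GRCh38.p14, with 6 of 10 members matched.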

Additional observations from a re-analysis of the deposited data

Results flagged for a closer look

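In PC3 cells, 3 members differed between the siRNAs against OC2 over both oxygen levels, by limma's test of the difference itself. CDK6 differed by -2.7391 on the log2 scale (siRNA1 over siRNA2, adjusted p = 4.73e-05), with 3.98 and 5.12 RPKM in the siRNA1 libraries and 26.1 and 36.2 RPKM in the siRNA2 libraries. CCND2 differed by -1.271 (adjusted p = 0.00758), with 4.82 and 3.17 RPKM against 9.47 and 9.69 RPKM, and had an adjusted p of 0.144 without the hypoxic siRNA2 library. CCNE1 differed by 0.9869 (adjusted p = 0.0248), with 13.7 and 7.75 RPKM against 5.56 and 4.76 RPKM, and did not pass without the filter on low values (adjusted p = 0.0588) or without either normoxic siOC2 library (0.0865 and 0.122). ONECUT2 itself was at 0.276 and 0.126 RPKM with siRNA1 and at 0.204 and 0.214 RPKM with siRNA2. Groups of 2 libraries are too small for a search for outlying samples.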

How the results depend on the processing

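Among alternative values of members' log2 fold changes, 263 kept their direction and side of the threshold, 42 no longer passed and 0 changed sign. The calls of CDKN1C in LNCaP cells passed under every alternative run. Of the counts of members called, 175 stayed within 1.5 times and 27 moved. CCNE1 in normoxic PC3 cells gave 0 members called in place of 1 with a pseudocount of 1, no filter, a filter of 5 RPKM, upper-quartile scaling, a fit to the groups compared or the adjusted p, and 0 to 3 when a library was left out (3, CCND3, CCNE1 and CDK6, without siRNA2 in normoxia; 0 without siCtrl normoxia replicate 2, siRNA1 in normoxia or either hypoxic siCtrl library; 1 without siCtrl normoxia replicate 1, where CCND3 was called and CCNE1, at 0.988, was not). In hypoxic PC3 cells siOC2 gave 1 to 2 members (2 without siRNA1, CCND2 and CCND3, and 2 without siRNA2, CCND3 and CDK6) and 0 by the adjusted p. Hypoxia in PC3 gave 0 to 1 with siCtrl (CDKN1B without siCtrl normoxia replicate 2) and 0 to 2 with siOC2 (CCNE1 without siRNA2 in normoxia, CCND2 and CDK4 without siRNA2 in hypoxia). By the adjusted p, LNCaP gave 2 and 3 members with OC2 in normoxia and hypoxia and 3 and 3 with hypoxia in EV and OC2. By the fold and unadjusted P, hypoxia in EV gave 1 member (CDKN1C), and 2 without a filter (CCND2 and CDKN1C). CCND2 was at 0.00635 to 0.149 RPKM in those EV libraries. siRNA2 gave 3 members by the adjusted p. By the fold and unadjusted P it gave 1 (CCND2), and 2 without siCtrl normoxia replicate 1 (CCND3 beside CCND2). CCND1 with OC2 in normoxia had an adjusted p of 0.051 to 0.119 without any of the 8 LNCaP libraries in turn, 0.0553 with a replicate block and 0.165 in a fit to its groups. CCND3 with OC2 in hypoxia gave 0.0566 without either normoxic OC2 library. The cause of these changes was not tested.

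Same-numbered libraries deviated together only for siOC2 (correlation 0.618, where the number is the siRNA) and for hypoxic EV and OC2 (0.275), against -0.186 to 0.0759 elsewhere, so the numbers were not taken to pair the libraries. A replicate block gave 2 members called with siOC2 in hypoxic PC3 cells (CCND2 and CCND3), an adjusted p of 0.0584 for CCND3 with OC2 in hypoxic LNCaP cells, and the same count elsewhere. Crossing the numbers of normoxic siCtrl gave 1 and 1 members called with siOC2 in normoxia and hypoxia. Depth is known only in relative terms, and 2 libraries a group limit what could be detected.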
